A study of Mus musculus with 46 samples.

Results

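The miR-26 family was followed through storage of mouse heart, liver and brain. Its members on the array were the guide strands mmu-miR-26a-5p and mmu-miR-26b-5p, taken by name, which made 2 of the 1881 mouse miRNAs on the array and 2 of the 815 that were analysed. The other strands cut from the same precursors, mmu-miR-26a-1-3p, mmu-miR-26a-2-3p and mmu-miR-26b-3p, were examined beside them.

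A miRNA is a short RNA held by an Argonaute protein, which it guides to messenger RNAs that pair with its seed, the bases near its 5′ end, and whose output then falls. The miR-26 genes lie inside the genes of the CTDSP small phosphatases, enzymes that act on the tail of RNA polymerase II, and the family is found in most differentiated tissues. It is known for lowering Ezh2, a histone methyltransferase, and for its low level in many liver tumours.

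The mature sequences are shown because the pair differs so little. Whether the probes of 1 member also read the other was not tested. The sequences are RefSeq's, placed on GRCm38.p6 and written 5′ to 3′, with the seed (bases 2 to 8) in capitals.
mmu-miR-26a-5p: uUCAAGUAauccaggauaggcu
mmu-miR-26b-5p: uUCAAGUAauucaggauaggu
The first is 22 bases long and the second 21. Of the 21 bases that can be set side by side from the 5′ end, 19 are identical, and the differences, counted from 1 at that end with the base of miR-26a-5p first, are C11U and C21U. Both have the seed UCAAGUA, which no other of the 1679 mature mouse miRNAs in the RefSeq table carried. By the seed alone, both members match the same sites in messenger RNAs.

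miR-26a-5p comes from 2 loci and miR-26b-5p from 1, all on the plus strand. The hairpins are shown with the mature strand in capitals, since they also hold the 3p strands reported here.
Mir26a-1: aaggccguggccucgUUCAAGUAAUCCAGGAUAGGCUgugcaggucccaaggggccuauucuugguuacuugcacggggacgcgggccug
Mir26a-2: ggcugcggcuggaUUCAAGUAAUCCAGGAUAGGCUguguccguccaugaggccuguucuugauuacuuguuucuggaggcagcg
Mir26b: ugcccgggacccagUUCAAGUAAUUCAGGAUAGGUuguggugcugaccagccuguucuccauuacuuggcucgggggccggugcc
The mature miR-26a-5p lies at chr9:119031811-119031832 within the span of Ctdspl and at chr10:126995543-126995564 within that of Ctdsp2. The mature miR-26b-5p lies at chr1:74394324-74394344 within the span of Ctdsp1. Signal of miR-26a-5p is the sum over both of its loci, because the mature strands are identical.

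All tissue came from male C57BL6 mice of an Il1a knock-out strain, so that every group carried the deletion. Heart, liver and brain were removed at death, cut into parts, and kept cold (4 °C) or at room temperature (RT) over 0, 1, 3, 6, 12, 24, 48 or 96 h by the labels before the RNA was stabilised. RNA integrity was given as the RIN, a Bioanalyzer score that falls as RNA breaks down. The study arrayed the organs of 1 animal for each temperature, with 1 array for each time and 1 slide for each tissue and temperature. Within a tissue, the animal, the slide and the temperature cannot be told apart. Storage time followed the place on the slide, in the same order on every slide except brain at 4 °C. On those slides hours and place cannot be told apart either. No time point had a replicate, and p-values therefore measure the scatter of arrays from 1 animal around a fitted line or mean, not the scatter between animals. The 45 arrays analysed were 7 of heart at 4 °C, 8 of heart at RT, 6 of liver at 4 °C, 8 of liver at RT, and 8 of brain at each temperature. Heart at 0 h and 4 °C was left out, as the methods did for its low quality.

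Values are the deposited log2 values after variance stabilising normalization (VSN), which puts the arrays on a common scale, and an increase by 1 is a doubling for bright miRNAs. The arrays detected 268 to 798 miRNAs each, with a median of 491, and no spot of either member was saturated. The tissue labels matched their marker miRNAs: hepatic miR-122-5p was at 11.19 to 15.47 in liver and at most at 7.38 elsewhere, and cardiac miR-1a-3p was never below 13.64 in heart. Neuronal miR-124-3p was never below 12.97 in brain.

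Each member was read by 2 probes of 15 spots, and both were detected on all 45 arrays. The probes of a member moved together, with r = 0.997 for miR-26a-5p and 0.998 for miR-26b-5p over the 45 arrays. The difference between the probes of miR-26a-5p ranged from −0.95 to −0.52 on the log2 scale, wider than the −0.70 to −0.50 of miR-26b-5p. In heart this difference followed storage hours on both slides. At 4 °C and RT its r was −0.840 and −0.808 for miR-26a-5p, and 0.848 and 0.781 for miR-26b-5p. On the other slides r lay between −0.347 and 0.784 for miR-26a-5p and between −0.099 and 0.778 for miR-26b-5p. The median spread among the spots of a probe was between 2.29% and 4.27% (coefficient of variation). The passenger strands were almost silent. miR-26a-1-3p and miR-26a-2-3p were detected on 0 of 45 arrays, and miR-26b-3p on 4, all of liver, at scanner signals of 0.808 to 1.37 against 170.2 or more for miR-26b-5p on every array.

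**Figure D1:**
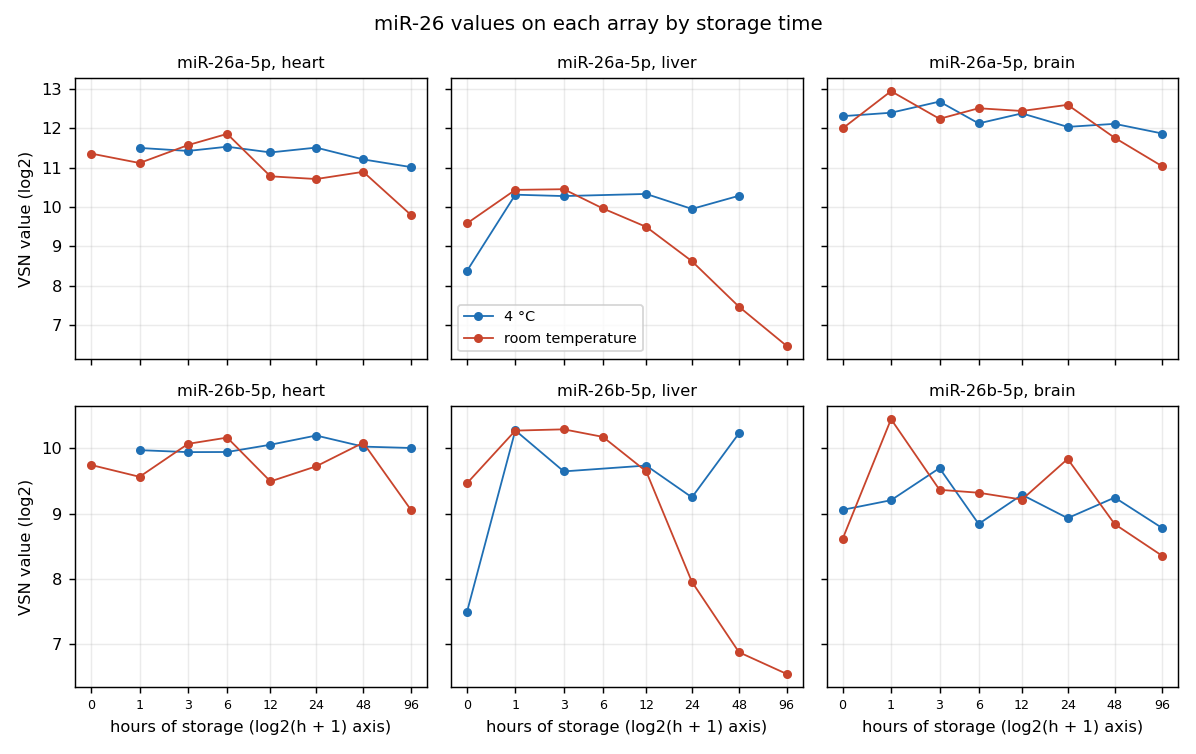
VSN value (log2) of each miR-26 member on each of the 45 arrays, by hours of storage on a log2(h + 1) axis, for heart, liver and brain at 4 °C and room temperature. Each point is 1 array, with no error bar because no time point was repeated. In liver at room temperature miR-26a-5p falls from 10.45 at 3 h to 6.47 at 96 h and miR-26b-5p from 10.29 to 6.55.

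The first comparison asked how the members are distributed over the organs when the RNA is intact, taken as a RIN over 6. Each tissue lay on slides of its own, so these levels were compared across slides, with the slide as a random block. The organs at a temperature came from 1 animal, and the fit did not pair them by animal. miR-26a-5p followed the order brain, heart, liver, and each step passed the test. On the VSN scale, miR-26b-5p had its highest mean in heart, with those of brain and liver close to each other. In 14 intact brain arrays miR-26a-5p ranged from 11.87 to 12.94 around a median of 12.35, in 13 of heart from 10.71 to 11.86 around 11.39, and in 6 of liver from 8.37 to 10.33 around 10.12. The brain arrays were all higher than the heart arrays, and the heart arrays all higher than the liver arrays. The means were 12.33 ± 0.29, 11.31 ± 0.33 and 9.81 ± 0.76 (SD). limma gave 2.53 ± 0.22 (SE) for brain minus liver, a 5.78-fold difference (adjusted p = 1.87e-12), where 72.5% of all miRNAs were called. Heart minus liver was 1.50 ± 0.22 (adjusted p = 6.17e-07, limma; 54.6% of all called), and heart was 2.04-fold lower than brain (difference −1.03 ± 0.18, adjusted p = 4.03e-06, limma; 69.1% called), a call that was lost under 1 other scaling (−0.34).

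miR-26b-5p, which has the same seed, had another order. It ranged from 9.49 to 10.19 in heart (median 9.97), from 8.61 to 10.44 in brain (median 9.23) and from 7.49 to 10.27 in liver (median 9.55). The 3 ranges overlapped. The means were 9.91 ± 0.22 in heart, 9.27 ± 0.47 in brain and 9.31 ± 0.96 in liver (SD). Heart minus brain was 0.64 ± 0.21 (adjusted p = 0.00842, limma), but without the brain slide of 4 °C it was 0.45 (adjusted p = 0.184, limma), and without the heart slide of 4 °C it was 0.52 (adjusted p = 0.0867, limma). Heart minus liver was 0.60 ± 0.27 (adjusted p = 0.0546, limma), short of the threshold. Brain minus liver was −0.03 with a 95% confidence interval of −0.57 to 0.50, which does not show that the levels were equal. In these pieces of whole organ, fewer cells of a type and less RNA per cell cannot be told apart.

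The scaling between arrays mattered for these tissue differences, because it moved the median difference of all 815 miRNAs as well. That median was 0.60 for heart minus liver and 1.11 for brain minus liver after VSN, and 0.00495 and 0.00312 after normexp background correction with quantile normalization. Brain minus liver of miR-26a-5p was positive and called under all 6 other scalings, between 0.72 and 3.16. Heart minus liver of miR-26a-5p was positive under all 6 but not called after quantile normalization (0.21) or normexp (0.12). For miR-26b-5p, heart minus liver was 1.11 and called without scaling (adjusted p = 9.90e-05, limma) but turned to −0.10, −0.65 and −0.51 under 3 others, the last 2 called in that direction (quantile and normexp, adjusted p = 3.43e-06 and 8.40e-05, limma). Its brain minus liver was 0.60 without scaling and between −1.68 and −0.78, and called, under 4 others. Heart minus brain of miR-26b-5p stayed positive and called under all 6, between 0.50 and 1.33. Among the liver arrays, that of 0 h at 4 °C stood below the others for both members, at 8.37 and 7.49, and without it the means of intact liver were 10.09 ± 0.32 and 9.67 ± 0.38 (SD, n = 5).

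The second comparison followed storage at RT, and liver lost both members. At 0, 1, 3, 6, 12, 24, 48 and 96 h the liver value of miR-26a-5p was 9.58, 10.44, 10.45, 9.97, 9.50, 8.63, 7.47 and 6.47. That of miR-26b-5p was 9.46, 10.27, 10.29, 10.17, 9.64, 7.95, 6.88 and 6.55. On the VSN scale both peaked at 3 h, and the arrays of 24 h and later were lower than every earlier one. By scanner signal both peaked at 6 h, at 1271 and 1467, and the array of 24 h (718 and 450.3) was above that of 0 h (385 and 353). From 3 h to 96 h miR-26a-5p fell by 3.98 and miR-26b-5p by 3.74, which is 15.8-fold and 13.4-fold lower on the VSN scale. The size of the loss depended on the scaling. The scanner signal of miR-26a-5p went from 1086 to 216.0 (5.03-fold lower) and that of miR-26b-5p from 967.4 to 227.5 (4.25-fold lower). Counted from 0 h, the members were 8.65-fold and 7.54-fold lower at 96 h on the VSN scale and 1.78-fold and 1.55-fold lower by scanner signal. Over the same arrays the count of detected miRNAs rose from 430 to 726.

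A line through the liver arrays at RT fell by 0.99 log2 units per 24 h for miR-26a-5p (95% confidence interval −1.23 to −0.75, adjusted p = 7.11e-09, limma). For miR-26b-5p it fell by 1.00 per 24 h (−1.32 to −0.68, adjusted p = 1.02e-06, limma). In this slide 75.3% of all miRNAs were called, 336 upward and 278 downward. The liver slopes of both members stayed negative and called under all 6 other scalings and without any single array. Without scaling they were smallest, at −0.0233 and −0.0238 log2 units per hour, and the largest adjusted p over the scalings was 0.000281 for miR-26a-5p and 0.00237 for miR-26b-5p (limma). An exact permutation test of the correlation with hours within the slide gave r = −0.950 for miR-26a-5p and −0.896 for miR-26b-5p (n = 8, two-sided, both adjusted p = 0.00655 over 12 relations). Spearman's rho was −0.833 and −0.738 (exact permutation p = 0.0154 and 0.0458). Neither rho was called after adjustment (both adjusted p = 0.173, same test).

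Markers of other cells moved in the same arrays. Of the 3 miRNAs of red blood cells examined, miR-451a fell from 10.43 at 3 h to 6.04 at 96 h (slope −0.0474 per hour, adjusted p = 1.20e-05, limma) and miR-144-3p from 7.80 to 0.32 (slope −0.0795, adjusted p = 7.05e-09, limma). The other, miR-486a-5p, rose from 3.30 to 4.20 (slope 0.0166, adjusted p = 0.00295, limma). Their mean level ranged from 3.52 to 7.19 in liver at RT and from 5.45 to 7.70 in liver at 4 °C. The hepatocyte miRNA miR-122-5p also fell (slope −0.0484, adjusted p = 2.53e-05, limma). The part of these markers in the loss of miR-26 was not tested.

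Heart and brain changed less at RT. In heart miR-26a-5p was 11.36, 11.12, 11.58, 11.86, 10.78, 10.71, 10.90 and 9.80 from 0 h to 96 h, and miR-26b-5p was 9.74, 9.56, 10.07, 10.16, 9.49, 9.72, 10.08 and 9.05. In brain miR-26a-5p was 12.00, 12.94, 12.24, 12.51, 12.44, 12.60, 11.76 and 11.03, and miR-26b-5p was 8.61, 10.44, 9.36, 9.32, 9.21, 9.83, 8.84 and 8.35. In all 4 series the array of 96 h was the lowest, and the values up to 48 h had no steady course. The RIN of the last array was 2.2 in heart and 3.3 in brain, against 4.6 and 5.5 at 48 h.

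miR-26a-5p fell by 0.39 log2 units per 24 h in heart (95% confidence interval −0.63 to −0.15, adjusted p = 0.00753, limma), where 52.3% of all miRNAs were called. In brain it fell by 0.36 per 24 h (−0.60 to −0.12, adjusted p = 0.0179, limma; 42.7% called). Both calls rested on the last array. Without the 96 h array the adjusted p was 0.390 in heart and 0.516 in brain (limma). The slopes themselves were then −0.0138 and −0.0114 log2 units per hour, against −0.0161 and −0.0150 with that array. With log2(hours + 1) in place of hours both slopes stayed negative but were not called. For miR-26b-5p the slope was −0.15 per 24 h in heart (−0.47 to 0.17) and −0.28 in brain (−0.60 to 0.04), and neither was called. The direction depended on the scaling for miR-26b-5p, and from 0 h to 96 h for miR-26a-5p of brain. From 0 h to 96 h miR-26b-5p of heart was 1.61-fold lower on the VSN scale while its scanner signal was 1.55-fold as high, and for brain the values were 1.20-fold lower and 2.51-fold as high. Over the same hours miR-26a-5p of brain was 1.95-fold lower on the VSN scale, with a scanner signal 1.54-fold as high. That of heart was lower on both, by 2.95-fold and 1.18-fold. Without scaling no slope of heart or brain was called. Those of miR-26b-5p turned positive, to 0.00800 and 0.0027 per hour, and those of miR-26a-5p were −0.00187 and −0.000693. Under the 75th percentile, quantile and normexp scalings both members were negative and called in both tissues.

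**Figure D2:**
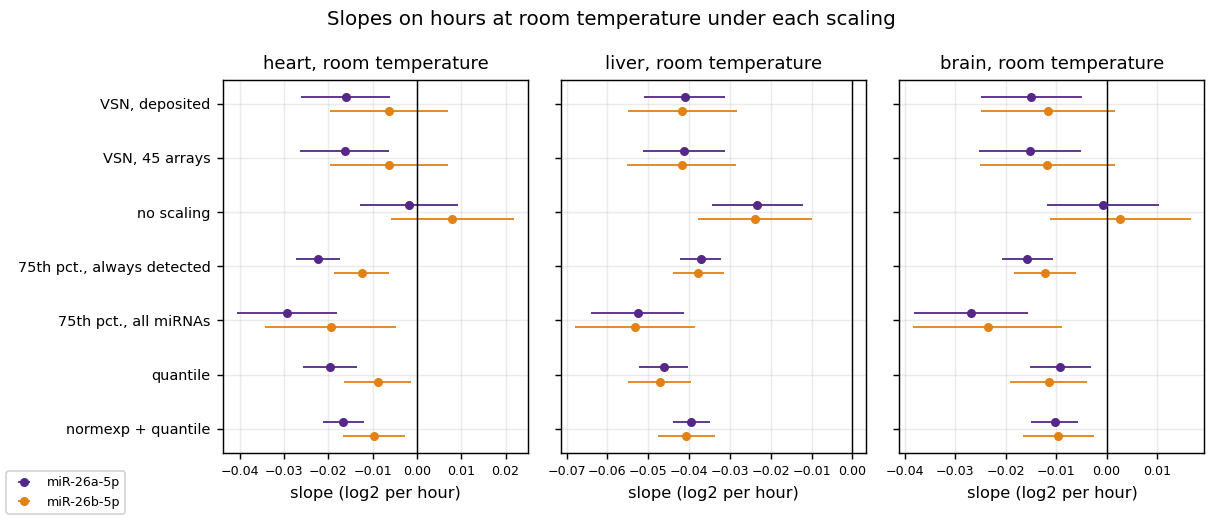
Slope on storage hours at room temperature (log2 per hour) of each member in heart, liver and brain, under the deposited VSN values and 6 other scalings. Points are the limma estimates and bars their 95% confidence intervals. All liver intervals lie below 0, while those of heart and brain move to either side of it, with 0.00800 for miR-26b-5p in heart without scaling.

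The slopes of the tissues at RT were then set against each other. Liver minus heart was −0.60 log2 units per 24 h for miR-26a-5p (95% confidence interval −0.94 to −0.26, adjusted p = 0.00543, limma) and −0.85 for miR-26b-5p (−1.30 to −0.40, adjusted p = 0.00332, limma), with 31.4% of all miRNAs called. Liver minus brain was −0.63 (−0.97 to −0.29, adjusted p = 0.00414, limma) and −0.72 (−1.17 to −0.27, adjusted p = 0.0110, limma), with 36.7% called. The loss was thus steeper in liver than in either other organ for both members. These 4 differences stayed negative and called under all 6 scalings. Leaving out the 96 h array of heart moved liver minus heart of miR-26a-5p to an adjusted p of 0.0895, and leaving out that of brain moved liver minus brain to 0.0899 and 0.158 (limma). Heart minus brain was −0.03 (−0.37 to 0.31) and 0.13 (−0.32 to 0.58) per 24 h, and was not called.

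At 4 °C no slope of either member was called. miR-26a-5p ranged from 11.02 to 11.53 in heart, from 8.37 to 10.33 in liver and from 11.87 to 12.68 in brain, and miR-26b-5p from 9.94 to 10.19, from 7.49 to 10.27 and from 8.78 to 9.69. In liver the 0 h array was the lowest of its slide for both, and the 48 h array, with a RIN of 3.4, stood at 10.29 and 10.23, among the highest. The correlation with hours over the 21 arrays was 0.03 for miR-26a-5p and 0.07 for miR-26b-5p, and 5.28% of all miRNAs were called. Within slides, miR-26a-5p of heart fell from 11.50 at 1 h to 11.02 at 96 h, with r = −0.930 (exact permutation test, n = 7, two-sided, adjusted p = 0.0369 over 12 relations), although its rank correlation was −0.607 (exact permutation p = 0.167). The brain slide had r = −0.742 for miR-26a-5p (exact permutation, n = 8, adjusted p = 0.0711). On that slide the arrays labelled 12 h and 96 h held each other's place in the order of the other slides. The labels were followed, but with these 2 arrays exchanged r was −0.0153 (exact permutation p = 0.969), and over the 21 arrays 0 miRNAs of 815 were called in place of 43 (60 and 143 at an unadjusted p under 0.05, test of Pearson's r).

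The slopes at RT were compared with those at 4 °C, each tissue and temperature being 1 slide and 1 animal. Averaged over the tissues, RT minus 4 °C was −0.60 log2 units per 24 h for miR-26a-5p (95% confidence interval −0.85 to −0.36, adjusted p = 0.000236, limma) and −0.62 for miR-26b-5p (−0.95 to −0.29, adjusted p = 0.00258, limma), with 46.5% of all miRNAs called. Liver had the largest difference, with −1.32 (adjusted p = 0.000479, limma) and −1.53 (adjusted p = 0.00154, limma), where 32.3% were called. In heart the differences were −0.26 (−0.61 to 0.08) and −0.16 (−0.62 to 0.30), and in brain −0.22 (−0.56 to 0.12) and −0.18 (−0.63 to 0.27). None of these 4 was called, where 15.3% of all miRNAs were called in heart and 1.47% in brain. Other scalings changed this for miR-26a-5p. In heart its difference was called under both percentiles, quantile and normexp, at −0.0145, −0.0252, −0.0140 and −0.0128 per hour (adjusted p = 0.00846, 0.0223, 0.0168 and 0.00504, limma), and in brain under the percentile over always detected miRNAs (−0.0129, adjusted p = 0.0132, limma). The liver series at 4 °C ended at 48 h, and without that array the liver difference had an adjusted p of 0.114 for miR-26a-5p and 0.298 for miR-26b-5p, and the mean difference of miR-26b-5p had 0.125 (limma). Without scaling the mean difference was −0.0110 and −0.0118 per hour and was not called for either member.

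Over all 24 arrays at RT, the correlation with hours was −0.48 for miR-26a-5p (adjusted p = 0.0385, test of Pearson's r) and −0.62 for miR-26b-5p (adjusted p = 0.00432, same test), with 54% of all miRNAs called. Spearman's rho was −0.323 (permutation p = 0.123) and −0.478 (permutation p = 0.0201). Without the 96 h arrays of heart and liver r was −0.22 (permutation p = 0.326) and −0.52 (permutation p = 0.0220). The organs differ in level, so the pooled r of miR-26a-5p carries that spread, and the pooled relation of miR-26a-5p rested on those arrays. Within slides r of miR-26a-5p was −0.850 in heart and −0.840 in brain (exact permutation, n = 8, adjusted p = 0.0369 and 0.0404). The matching rho was −0.714 and −0.429, and neither was called (exact permutation, adjusted p = 0.173 and 0.513). For miR-26b-5p r was −0.560 and −0.572, not called.

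The third comparison took RNA integrity itself as the measure. Over the 45 arrays, r with RIN was 0.63 for miR-26a-5p (adjusted p = 1.47e-05, test of Pearson's r) and 0.34 for miR-26b-5p (adjusted p = 0.0325, same test), both higher where the RNA was more intact. Of all miRNAs 73.9% were called, and 45.5% of those calls were positive, against 16.7% of 503 calls without scaling. The r of miR-26a-5p stood at rank 786 of 815 counted from the lowest, and that of miR-26b-5p at rank 564. Spearman's rho was 0.422 (permutation p = 0.00418) and 0.0746 (permutation p = 0.624). Without the 96 h arrays of heart and liver r was 0.56 (permutation p = 0.00017) and 0.21 (permutation p = 0.181), so the relation of miR-26b-5p rested on them. Without scaling r was 0.40 and −0.06, and it was positive for both members under the other 5 scalings.

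Low RIN fell unevenly over the organs, with 8 of 14 liver arrays at 6 or lower against 2 of 15 in heart and 2 of 16 in brain. Liver also had the lowest miR-26a-5p when intact, and the relation was therefore read within tissues. For miR-26a-5p r was 0.778 in heart and 0.733 in brain (permutation, both adjusted p = 0.0497 over 18 relations), and 0.420 in liver (permutation p = 0.135). For miR-26b-5p it was 0.512, 0.406 and 0.246, with permutation p-values of 0.0704, 0.121 and 0.397. Spearman's rho of miR-26a-5p was 0.566 in heart and 0.253 in brain, and neither was called (permutation, adjusted p = 0.176 and 0.594). Pooled over the organs, the arrays with a RIN over 6 showed almost no relation, at r = −0.01 for miR-26a-5p and −0.13 for miR-26b-5p. Within slides their slope on RIN was −0.152 and −0.439, and neither was called. The heart slide at 4 °C, with RINs of 8.1 to 8.8, had r = 0.875 for miR-26a-5p and 0.0134 for miR-26b-5p. That of miR-26a-5p was called (exact permutation, n = 7, adjusted p = 0.0497), but its rho of 0.842 was not (adjusted p = 0.176). In brain at 4 °C r was 0.625 and 0.340, not called. Without the liver slide at RT the pooled r fell to 0.27 and 0.09, and the call was lost for both.

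**Figure D3:**
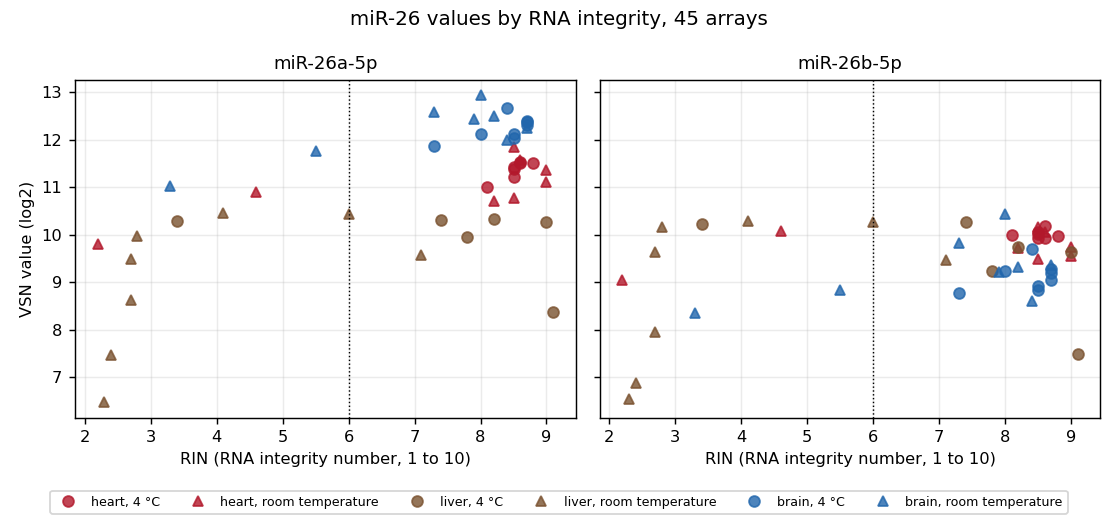
VSN value (log2) of each member against RIN (RNA integrity number) on the 45 arrays, with colours for the tissues, circles for 4 °C and triangles for room temperature. The dotted line marks a RIN of 6. The lowest values of both members, 6.47 and 6.55, belong to liver after 96 h at room temperature (RIN 2.3), while liver after 48 h at 4 °C (RIN 3.4) is at 10.29 and 10.23.

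A slope on RIN within slides, with the slide as a block, was 0.20 ± 0.07 log2 units per RIN unit for miR-26a-5p (SE, adjusted p = 0.00788, limma) and 0.11 ± 0.07 for miR-26b-5p (adjusted p = 0.184, limma), with 69.1% of all miRNAs called. Without the heart slide at RT the call of miR-26a-5p was lost (0.198, adjusted p = 0.0520, limma), and without the liver slide at 4 °C that of miR-26b-5p was gained (0.197, adjusted p = 0.0162, limma), as it was without that slide's 48 h array alone (0.171, adjusted p = 0.0476, limma). Per tissue, the slope of miR-26a-5p was 0.19 in heart, 0.16 in liver and 0.26 in brain, and that of miR-26b-5p was 0.06, 0.10 and 0.20. None of the 6 was called, where 47.9%, 53.5% and 39.1% of all miRNAs were, and no difference between tissues was called (all adjusted p at least 0.940, limma). Without scaling the slope within slides turned to −0.0156 for miR-26a-5p and −0.103 for miR-26b-5p, and it was positive under the other 5 scalings.

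Liver was then divided at a RIN of 6 into 8 low and 6 high arrays. The low arrays ranged from 6.47 to 10.45 for miR-26a-5p (median 9.73) and from 6.55 to 10.29 for miR-26b-5p (median 9.91). The high arrays ranged from 8.37 to 10.33 (median 10.12) and from 7.49 to 10.27 (median 9.55), so that the groups overlapped. Low minus high was −0.66 for miR-26a-5p (exact permutation p = 0.361 over 3003 splits, two-sided) and −0.31 for miR-26b-5p (exact permutation p = 0.684). The exact Wilcoxon-Mann-Whitney test of the study's methods called neither (adjusted p = 0.890 and 0.941), where 27.7% of all miRNAs were called. The low arrays held both the peak of 3 h at RT, with a RIN of 4.1, and the lowest values of 48 h and 96 h, with RINs of 2.4 and 2.3. The scaling decided the sign: without scaling low minus high was 0.34 and 0.69, and it was −1.26, −1.61 and −1.48 for miR-26a-5p, and called, under 3 other scalings.

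The same division in limma gave, for degraded minus intact, −0.96 (95% confidence interval −2.10 to 0.18) in heart, −0.66 (−1.47 to 0.16) in liver and −0.94 (−2.07 to 0.20) in brain for miR-26a-5p. For miR-26b-5p it gave −0.34 (−1.60 to 0.91), −0.31 (−1.20 to 0.58) and −0.68 (−1.93 to 0.57). All 6 were negative and none was called, where 42%, 54.7% and 22.6% of all miRNAs were. In heart the degraded arrays stood at 10.90 and 9.80 for miR-26a-5p and at 10.08 and 9.05 for miR-26b-5p, and in brain at 11.76 and 11.03 and at 8.84 and 8.35. With 2 degraded arrays each, the intervals in heart and brain were wide. Without scaling 5 of the 6 differences were positive, the exception being miR-26a-5p of brain at −0.08. Under both percentiles, quantile and normexp the differences of miR-26a-5p were called in heart (−1.64, −1.93, −1.32 and −1.16) and liver (−1.26, −1.27, −1.61 and −1.48), and under the percentiles in brain as well (−1.07 and −1.71). miR-26b-5p was called under 3 of these, in liver alone (−0.91, −1.26 and −1.05).

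The difference between the members on the same array does not depend, for bright miRNAs, on a factor that multiplies the whole array. It is no ratio of their amounts, since the probes differ, but its change between arrays can be read if each probe reads its own member. It ranged from 2.50 to 3.39 over the 16 brain arrays, from 0.74 to 1.70 over the 15 of heart and from −0.21 to 0.89 over the 14 of liver. Brain was apart from the others, while heart and liver overlapped. Brain exceeded heart by 1.71 and liver by 2.73, and heart exceeded liver by 1.01 (each permutation p = 1e-05, the least 100000 resamples allow, and adjusted p = 3.75e-05 over 15 comparisons). These p-values take arrays of 1 animal as separate samples. Over the 6 scalings the ranges were 1.66 to 1.86, 2.63 to 2.73 and 0.81 to 1.01, and over the 4 pairings of 1 probe of each member 1.67 to 1.76, 2.65 to 2.83 and 0.89 to 1.16. The organ pattern of the members therefore differed under every scaling that was run.

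**Figure D4:**
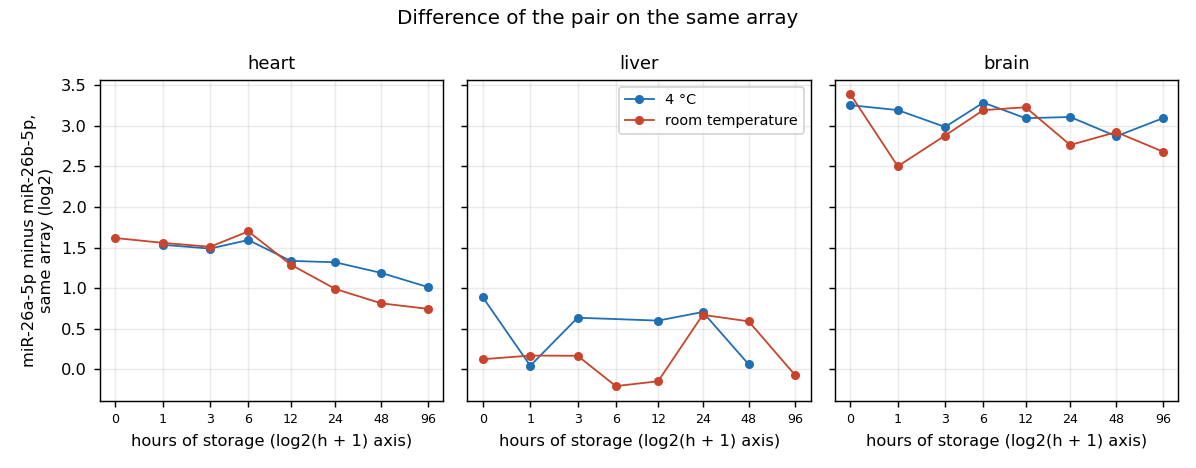
miR-26a-5p minus miR-26b-5p on the same array (VSN log2) by hours of storage on a log2(h + 1) axis, for each tissue at 4 °C and room temperature. Each point is 1 array. From the first to the last array heart goes from 1.62 to 0.74 at room temperature and from 1.53 to 1.01 at 4 °C, liver from 0.12 to −0.07 and from 0.89 to 0.06, and brain from 3.39 to 2.68 and from 3.25 to 3.09.

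In heart the difference narrowed during storage on both slides. At RT it was 1.62 at 0 h and 0.74 at 96 h, with r = −0.867 with hours (exact permutation p = 0.000422, n = 8, adjusted p = 0.00126). At 4 °C it was 1.53 at 1 h and 1.01 at 96 h, with r = −0.931 (exact permutation p = 0.00159, n = 7, adjusted p = 0.0034). From the first to the last array miR-26a-5p differed by −1.56 and miR-26b-5p by −0.69 at RT, and by −0.49 and 0.03 at 4 °C. At 4 °C, where the RIN of heart stayed between 8.1 and 8.8, miR-26b-5p stayed between 9.94 and 10.19. The r at RT was between −0.969 and −0.810 over the scalings and between −0.877 and −0.859 over the probe pairings. The r at 4 °C was between −0.931 and −0.756, where normexp lost the call (exact permutation, adjusted p = 0.0577), and between −0.933 and −0.928 over the pairings.

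On the other slides the relation with hours was not called, which does not show that they differed from heart. The first and last values also fell in liver at 4 °C, from 0.89 to 0.06, with a slope of −0.00801 per hour against −0.00554 in heart at 4 °C, and in brain at RT, from 3.39 to 2.68. In liver at 4 °C the values between had no steady course, with 0.04, 0.64, 0.60 and 0.71 at 1, 3, 12 and 24 h. r with hours was −0.425 in liver at 4 °C, 0.0565 in liver at RT, −0.396 in brain at 4 °C and −0.373 in brain at RT (exact permutation p at least 0.328 in each). The slope over the slides together was −0.0954 log2 units per 24 h at 4 °C (permutation adjusted p = 0.0114) and −0.102 at RT (permutation adjusted p = 0.0729). Without the heart array of 96 h the slope at 4 °C was not called. Against RIN, the difference had r = 0.767 within heart (permutation p = 1e-05, adjusted p = 3.75e-05, rho = 0.804), and 0.751 without the 2 arrays of lowest RIN. Within liver and brain r was 0.535 and 0.486 (permutation, both adjusted p = 0.0729). The organs form separate groups, so r was read within them.

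The miRNAs whose values ran most like those of the members differed between the members. Over the 45 arrays, which share slides and scaling, miR-26a-5p was closest to miR-99b-5p (r = 0.992), let-7c-5p (0.986), let-7b-5p (0.981), miR-100-5p (0.980) and let-7i-5p (0.973), while miR-26b-5p stood at rank 243 with r = 0.536. miR-26b-5p was closest to miR-15a-5p (0.962), miR-30c-2-3p (0.938), miR-30a-5p (0.936), miR-30a-3p (0.929) and miR-22-5p (0.923). With the slide means removed, the pair came closer, at r = 0.935, yet other miRNAs were nearer still. Those nearest to miR-26a-5p were then miR-361-5p (0.985), miR-99b-5p (0.982), let-7c-5p (0.977), let-7b-5p (0.976) and miR-125b-5p (0.972). Those nearest to miR-26b-5p were miR-101c (0.987), miR-98-5p (0.986), miR-101a-3p (0.985), miR-3962 (0.984) and let-7i-5p (0.983).

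The let-7 and miR-30 guide strands, which are likewise abundant in most differentiated tissues, were set beside miR-26 by their counts. In liver at RT 9 of 9 let-7 strands and 5 of 5 miR-30 strands fell, with median slopes of −0.0619 and −0.0503 log2 units per hour against −0.0411 and −0.0417 for the miR-26 members and a median of 0.00611 over all 815, of which 34.1% were called downward. In heart at RT 0 of 9 let-7 strands fell by limma's adjusted p (1 at an unadjusted p under 0.05) and 3 of 5 miR-30 strands did (medians −0.0101 and −0.0137, 18.8% of all miRNAs downward), and in brain 6 of 9 and 1 of 5 (medians −0.0173 and −0.0103, 17.3% of all downward). The r with RIN was positive and called for 9 of 9 and 5 of 5 (medians 0.545 and 0.623), against a median of −0.036 over all and 33.6% of all called positive. In intact RNA, heart minus brain was negative and called for 8 of 9 let-7 strands and positive and called for 5 of 5 miR-30 strands (medians −0.90 and 0.80; 47.1% of all called negative and 22% positive), which places miR-26a-5p, at −1.03, near the former and miR-26b-5p, at 0.64, near the latter. Whether the members differ from these lists was not tested.

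**Figure D5:**
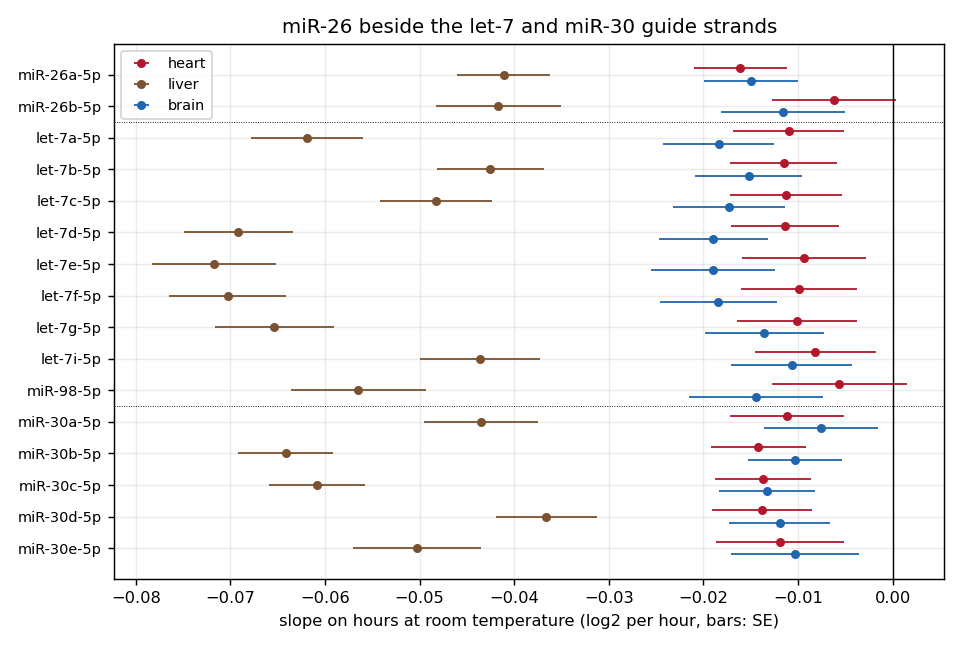
Slope on storage hours at room temperature (log2 per hour, VSN values) of the miR-26 members and of the let-7 and miR-30 guide strands in heart, liver and brain. Points are limma estimates and bars 1 standard error. In liver the miR-26 members, at −0.0411 and −0.0417, lie above the let-7 strands, which range from −0.0718 to −0.0425.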

How the data were processed

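Total RNA including small RNA was labelled with Cyanine 3-pCp and hybridised to 1-colour Agilent mouse miRNA arrays. The authors read the arrays with Agilent Feature Extraction (version 10.10.1.1 per the file headers), which gave intensity values corrected for background and detection flags, which were deposited per array. The authors' deposited log2 table holds these signals after VSN. A refit of VSN to the scanner signals of the 46 arrays matched the table to within 0.00182, so it is log2 after VSN, uncentred. VSN assumes that most miRNAs stay level, so a change is relative to the other miRNAs of an array. Arrays give no counts, so precision is set by how many arrays there are.

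From these values miRNAs detected on at least 5 of 45 arrays were kept, which left 815. Slopes and contrasts were fitted over all 815 with limma 3.58.1 in R 4.3.3, with Benjamini-Hochberg adjusted p-values and a threshold of 0.05, as in the study's methods. The slide was a block in slopes on RIN and hours and a random block in tissue contrasts. Correlations over all 815 miRNAs, with the shares called, used the t test of Pearson's r and the same adjustment. This called 602 miRNAs with RIN and 440 with hours at RT. The paper reports 298 and 99, the counts that a Bonferroni adjustment gave here. Under Bonferroni r with RIN of miR-26b-5p and r with hours at RT of both members were not called. The p-values named as permutation used 100000 resamples, exact for 8 arrays or fewer, in Python 3.11.15 with scipy 1.17.1. The scripts were tested on simulated data.

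The 6 other scalings were VSN refitted over 45 arrays, no scaling, the 75th percentile over the 180 miRNAs detected on every array or over all miRNAs, quantile normalization, and normexp (offset 50) with quantile normalization. The mean spot signal was not used here, and normexp took the median. Further alternatives were Bonferroni adjustment, Spearman's rho, other detection filters, subsets of arrays, blocks and log2(hours + 1). Leaving out single arrays, the differences between tissue slopes, the relation of the difference between the members to hours, the probe pairings and an exchange of 2 arrays (brain at 4 °C, 12 h and 96 h) were added after seeing the data. The labels give 12 h where the methods give 14 h, and the labels were used. Members and lists were chosen with earlier results of these data known. Named miRNAs were the members, their other strands, the 5 with the highest r to each member over the 45 arrays and within slides, the let-7 and miR-30 guide strands, and markers. Sequences are from RefSeq (GRCm38.p6), which held 1608 of the 1881 array miRNAs.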

Additional observations from a re-analysis of the deposited data

Results flagged for a closer look

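The liver array of 0 h at 4 °C stood apart from the other 5 of its slide for both members. It read 8.37 for miR-26a-5p, with the next lowest at 9.95, a gap of 0.806 of the whole range, and 7.49 for miR-26b-5p, with the next lowest at 9.25, a gap of 0.632 of the range. This array also detected the fewest miRNAs of all 45, 268, at a RIN of 9.1. In all, 18 sets of values were examined for such a gap, and chance gives about 1 in 20.

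At RT the slope in liver differed from that in the other organs for both members. Liver minus heart was −0.025 log2 units per hour for miR-26a-5p and −0.0354 for miR-26b-5p, and liver minus brain was −0.0262 and −0.0301. All 4 passed limma's test of the difference, and 3 of them lost the call without the 96 h array of heart or of brain, the exception being liver minus heart of miR-26b-5p.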

How the results depend on the processing

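The loss of both members in liver at RT, the steeper slope of liver than of heart and brain, brain minus liver of miR-26a-5p and the tissue differences of miR-26a-5p minus miR-26b-5p kept their direction and call under every scaling tried, and the results below did not. Over all results and settings other than leaving out arrays, 532 values kept direction and call, 55 gained a call, 24 lost one and 66 changed sign. Where the setting itself does not show the cause (fewer arrays, or a stricter adjustment), the cause was not tested. Signal depth set no limit, since both members were detected on every array. With 1 animal a slide and no repeated time, the spread between animals is unknown.

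Without scaling, signs turned for r with RIN of miR-26b-5p (−0.0569), for the RIN slope within slides (−0.0156 for miR-26a-5p, −0.103 for miR-26b-5p), and per tissue for heart (−0.00135 and −0.131), liver (−0.0445 and −0.101) and brain (−0.058, miR-26b-5p). RT minus 4 °C turned in heart (0.00174 and 0.00608) and brain (0.00226 and 0.00402), as did the RT slopes of miR-26b-5p in brain (0.0027) and heart (0.00800). Low minus high RIN in liver, and degraded minus intact there, became 0.345 and 0.691, degraded minus intact became 0.138 and 0.755 in heart and 0.175 in brain (miR-26b-5p), and brain minus liver of miR-26b-5p became 0.602. Calls were lost for r with hours at RT (−0.194 and −0.169) and for the mean RT minus 4 °C (−0.011 and −0.0118), while heart minus liver of miR-26b-5p gained one (1.11).

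With the 75th percentile over miRNAs detected on all arrays, calls were gained by the RIN slope within slides of miR-26b-5p (0.196), the RIN slopes of miR-26a-5p in heart (0.30), liver (0.269) and brain (0.282) and of miR-26b-5p in liver (0.212), and low minus high RIN in liver for miR-26a-5p (−1.26). Degraded minus intact also gained calls, in heart (−1.64), liver (−1.26) and brain (−1.07) for miR-26a-5p and in liver (−0.914) for miR-26b-5p, and so did brain minus liver of miR-26b-5p (−0.781). Signs turned for r with hours at 4 °C (−0.0844 and −0.126), the slopes at 4 °C in heart (−0.00225, miR-26b-5p) and liver (−0.00835 and −0.000283), heart minus liver of miR-26b-5p (−0.0962), and heart minus brain of the RIN slope of miR-26a-5p (0.0179) and of the RT slope of miR-26b-5p (−0.000165).

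With the percentile over all miRNAs, calls were gained by the RIN slope within slides of miR-26b-5p (0.280), the RIN slopes of miR-26a-5p in heart (0.380), liver (0.295) and brain (0.477), degraded minus intact of miR-26a-5p in heart (−1.93), liver (−1.27) and brain (−1.71), and brain minus liver of miR-26b-5p (−0.971), and lost by heart minus brain of miR-26a-5p (−0.337). Signs turned for r with hours at 4 °C (−0.0347 and −0.0179) and the RIN slope of heart minus liver of miR-26b-5p (0.012).

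With quantile normalization, calls were gained by the RIN slope within slides of miR-26b-5p (0.215), the RIN slopes in heart (0.261, miR-26a-5p) and liver (0.372 and 0.319), low minus high RIN in liver of miR-26a-5p (−1.61), degraded minus intact in heart (−1.32, miR-26a-5p) and liver (−1.61 and −1.26), and brain minus liver of miR-26b-5p (−1.68). Calls were lost by heart minus liver of miR-26a-5p (0.206), r with RIN of miR-26b-5p (0.306) and the slope of the difference between the members at 4 °C (−0.00365). Signs turned for r with hours at 4 °C (−0.191 and −0.0853), the slopes of liver at 4 °C (−0.00841 and −0.00139), heart minus liver of miR-26b-5p (−0.652, called), and the differences of RIN slopes (miR-26a-5p: heart minus liver −0.111, heart minus brain 0.103, liver minus brain 0.214, and miR-26b-5p: liver minus brain 0.121). For the difference between the members, signs turned for r with RIN in brain (−0.235) and with hours in brain at 4 °C (0.203) and RT (0.283).

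With normexp, calls were gained by the RIN slope within slides of miR-26b-5p (0.187), the RIN slopes in heart (0.220, miR-26a-5p) and liver (0.326 and 0.260), low minus high RIN in liver of miR-26a-5p (−1.48), degraded minus intact in heart (−1.16, miR-26a-5p) and liver (−1.48 and −1.05), and brain minus liver of miR-26b-5p (−1.51). Calls were lost by heart minus liver of miR-26a-5p (0.120), r with RIN of miR-26b-5p (0.284) and r of the difference between the members with hours in heart at 4 °C (−0.756). Signs turned for r with hours at 4 °C (−0.163 and −0.0696), the slope of miR-26a-5p in liver at 4 °C (−0.00858), heart minus liver of miR-26b-5p (−0.507, called), heart minus brain of the RT slope of miR-26b-5p (−0.000134), and the differences of RIN slopes (miR-26a-5p: heart minus liver −0.106, heart minus brain 0.0326, liver minus brain 0.139, and miR-26b-5p: liver minus brain 0.0968).

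RT minus 4 °C of miR-26a-5p gained a call in heart under these 4 scalings (−0.0145, −0.0252, −0.0140 and −0.0128 in the order given) and in brain under the first (−0.0129). Of the other settings, arrays of RIN over 6 alone gave r with RIN of −0.0123 and −0.130, RIN slopes within slides of −0.152 and −0.439, and for the difference between the members r = 0.061 with RIN over the organs together (0.492 with all 45 arrays, which mixes their levels) and 0.244 with hours in liver at 4 °C. The Bonferroni adjustment lost r with RIN of miR-26b-5p (0.339) and both r with hours at RT (−0.475 and −0.621). Spearman's rho lost r with RIN of miR-26b-5p (0.0746) and r with hours at RT of miR-26a-5p (−0.323), and turned r with hours at 4 °C of miR-26a-5p (−0.089). r with RIN of miR-26b-5p also lost its call with the heart array of 0 h included (0.236) and with the tissue as a block (0.285). The slide as a block turned r with hours at 4 °C of miR-26a-5p (−0.227), and in limma it turned low minus high RIN in liver of miR-26b-5p (0.137). All 45 arrays in place of the intact ones turned brain minus liver of miR-26b-5p (0.0388) and took the call from heart minus brain (0.684), and no slide block gave heart minus liver of miR-26b-5p a call (0.605). Taking the second probe of miR-26a-5p with the first of miR-26b-5p gave the difference between the members calls with RIN in liver (0.579) and brain (0.546) and for the slope at RT (−0.00484), and turned r with hours in liver at RT (−0.0618), as did the second probe of each (−0.0334). Exchanging 2 arrays (brain at 4 °C, 12 h and 96 h) turned the slope of miR-26b-5p on that slide (0.00151). With log2(hours + 1) the RT slopes of miR-26a-5p in heart and brain lost their calls (−0.201 and −0.151 on that axis).

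Leaving out 1 array or slide at a time gave these ranges. r with RIN was 0.271 to 0.764 for miR-26a-5p and 0.0887 to 0.466 for miR-26b-5p, and the RIN slope within slides 0.133 to 0.276 and 0.0207 to 0.197. r with hours was −0.625 to −0.280 and −0.734 to −0.479 at RT, and at 4 °C it was −0.401 to 0.151 and −0.076 to 0.269. For miR-26b-5p, brain minus liver was −0.385 to 0.156, heart minus brain 0.448 to 0.782, heart minus liver 0.246 to 0.785, and the mean RT minus 4 °C −0.036 to −0.0196. Degraded minus intact was −0.942 to −0.273 and −0.674 to 0.0402 in liver, the latter also for low minus high RIN, and −0.858 to 0.170 in heart for miR-26b-5p, turned without the heart array of 96 h at RT. That array also turned the RT slope of miR-26b-5p in heart (−0.00819 to 0.00425) and its RT minus 4 °C (−0.00872 to 0.00386). Heart minus brain of the RT slope of miR-26a-5p was −0.00468 to 0.00111, and its liver slope at 4 °C −0.00184 to 0.0244. For the difference between the members, r with hours was −0.883 to 0.244 in liver kept cold and −0.125 to 0.683 in liver at RT, r with RIN 0.429 to 0.675 in liver and 0.331 to 0.629 in brain, and the slope at 4 °C −0.00606 to −0.0032 and that at RT −0.00489 to −0.00316. Of the 51 omissions, 8 took the call from r with RIN of miR-26b-5p, namely those of the RT arrays of liver at 24, 48 and 96 h and of brain at 96 h, and of the slides of heart at either temperature and of liver and brain at RT. The RIN slope within slides of miR-26a-5p lost its call without the heart slide at RT. r with RIN of miR-26a-5p lost it only without the liver slide at RT, and r with hours at RT of miR-26a-5p lost it in 7 of 27 omissions.

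The number of all miRNAs called moved by over 1.5 times in few settings. With RIN it went from 602 to 0 in arrays of RIN over 6 (105 there at an unadjusted p under 0.05, test of Pearson's r), to 298 with Bonferroni and to 142 of 180 among the miRNAs detected on all 45 arrays (78.9%), and within slides from 563 to 30 in arrays of RIN over 6. With hours it went from 440 to 99 at RT with Bonferroni, and at 4 °C from 43 to 26 with the percentile over always detected miRNAs, 69 with normexp, 96 with the slide as a block, 91 with Spearman's rho and 0 with the 2 brain arrays exchanged (60 at an unadjusted p under 0.05). The share of positive calls of the RIN slope within slides was 37.5% after VSN and 1.08% without scaling.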
